A study of Mus musculus with 17 samples.

Results

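The potassium channel genes are the rows of the mouse diaphragm expression table whose symbol starts with Kcn, leaving out symbols with a hyphen or ending in "os". They number 97 of 47643 symbols, and 26 of them reached 1 TPM (transcripts per 1000000, a level per gene length) in at least 3 mice and could be tested. The rule uses names alone, so it takes in pore-forming subunits, the auxiliary subunits that bind to them and 3 noncoding transcripts. The mice were C57BL/6J males aged 4 months, and RNA of their diaphragm was read in 4 groups. Control mice (n = 5) carried no tumor and received mock injections of buffer with albumin, and Control + rFibcd1 mice (n = 5) carried no tumor and received rFibcd1, a recombinant fragment of the secreted protein Fibcd1, in the peritoneal cavity. LLC mice (n = 3) bore flank tumors grown from transplanted Lewis lung carcinoma (LLC) cells and received the mock injections, and LLC + rFibcd1 mice (n = 4) carried the same tumors and received rFibcd1. All mice were thus injected, and LLC is 1 transplanted cell line.

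Potassium channels let potassium leave or enter a cell along its gradient and so set the resting potential and end each action potential. In skeletal myofibers inward rectifiers hold the resting potential, delayed rectifiers of the voltage-gated families repolarize the membrane, ATP-sensitive channels open when energy is short, and calcium-activated channels follow intracellular calcium. Immune, vascular, fat and epithelial cells of the same tissue use other members of the family. In a piece of tissue, fewer cells of a type and less RNA per cell cannot be told apart.

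Depth, recovered from the steps of low TPM values and the exon lengths of the GENCODE annotation, was 50644000 to 54511000 reads per mouse. At that depth a tested channel gene rested on between 18.6 and 5829.9 estimated reads in 1 mouse. The label of the tissue fits its markers, and the 7 skeletal myofiber markers had a summed level of 36834 ± 1385 TPM in Control (SD, n = 5). Some libraries stood apart from the rest, and the epithelial and brown fat genes that show this were listed after the values were seen. LLC mouse 3 and, less so, Control mouse 1 held transcripts of epithelial cells, LLC mouse 3 had high smooth muscle markers, and 6 mice held Ucp1, the uncoupling protein of brown fat. These libraries are described with the channel genes that moved with them, and the counts below are given with and without them where they matter.

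Kcna7, a voltage-gated channel of muscle, had the highest level of the family in the Control diaphragm. Its level was 90.5, 93.1, 88.9, 84.5 and 90.8 TPM in Control mice 1 to 5, and it made up 26.7% ± 1.37 of the summed TPM of all members (SD, n = 5). Among the next levels were 29.8 ± 6.00 TPM for Kcnj2, an inward rectifier, 27.4 ± 8.44 for Kcng4 and 27.1 ± 1.42 for Kcnj11 (SD, n = 5). These 3 lay within each other's spread. Kcng4 is a silent subunit that acts only in a pore shared with other voltage-gated subunits, and Kcnj11 is the pore of the muscle ATP-sensitive channel. The highest 7 members together held 70.8% ± 2.64 of the summed level (SD, n = 5).

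**Figure D1:**
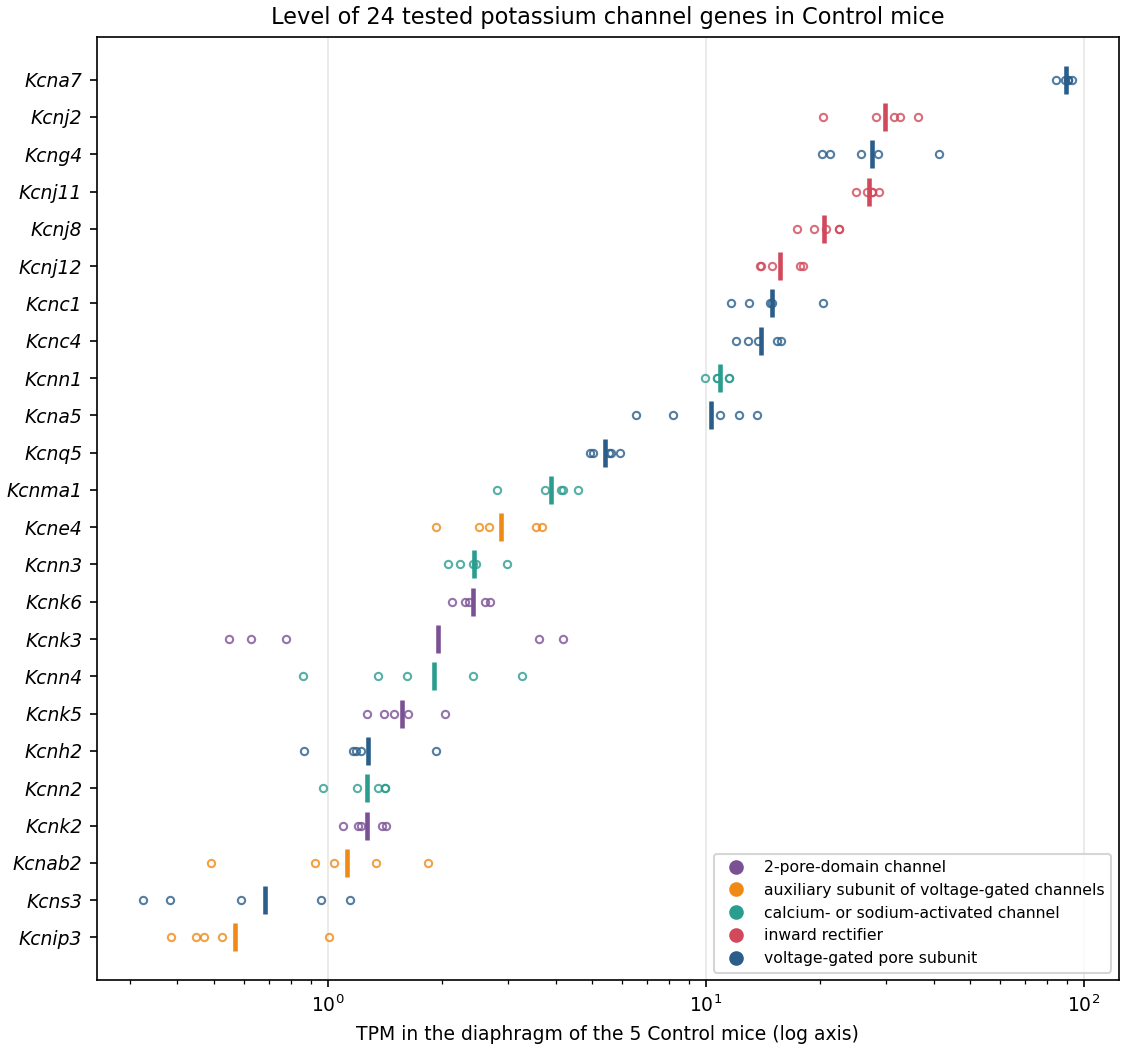
TPM of 24 of the 26 tested potassium channel genes in the 5 Control mice on a log axis, 1 open point per mouse and a bar at the mean, colored by role. Kcna7 stands alone near 90 TPM, Kcnj2, Kcng4 and Kcnj11 lie together between 27.1 and 29.8 TPM, and the means of the 2-pore-domain and auxiliary genes lie below 3 TPM.

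By role, 10 of 40 voltage-gated pore subunits were tested, 4 of 15 inward rectifiers, 5 of 12 calcium- or sodium-activated members, 4 of 14 2-pore-domain (leak) channels, 3 of 13 auxiliary subunits and 0 of 3 noncoding transcripts. Voltage-gated pore subunits summed to 204.8 ± 11.6 TPM in Control and inward rectifiers to 94.6 ± 8.96 TPM (SD, n = 5). Calcium- or sodium-activated members summed to 21.8 ± 0.596 TPM, and both remaining coding classes to under 10 TPM. Of the 71 members below the filter, 5 were listed at 0 in every mouse: Kcnk9, Kcnk15, Kcnk16, Kcnk18 and Kcnq1ot1. A count of 0 allows up to 3 reads, which for Kcnk15, the shortest of these, is 0.0561 to 0.0628 TPM by mouse (counting error only). A further 26 stayed under 0.1 TPM in every mouse.

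The promoters of the 5 members that the tumor comparisons turn on most are shown here, since the rises and falls below are those of their transcripts. They are RefSeq windows on GRCm38.p6, 250 bases before to 50 after a transcription start. Where a gene had several starts, the one nearest the gene's 5′ end in GENCODE was taken. For Kcnj12 the RefSeq start lies 43240 bases downstream of that end, so its window is that of an internal start. Capitals mark matches on either strand to CAGCTG, the E-box of the myogenic factors, and to GAGGAA, the core bound by PU.1, a factor of myeloid and B cells. The 2 motifs do not overlap in these windows.
Kcnq5 (lower with tumor), chr1:21961893-21962192, minus strand: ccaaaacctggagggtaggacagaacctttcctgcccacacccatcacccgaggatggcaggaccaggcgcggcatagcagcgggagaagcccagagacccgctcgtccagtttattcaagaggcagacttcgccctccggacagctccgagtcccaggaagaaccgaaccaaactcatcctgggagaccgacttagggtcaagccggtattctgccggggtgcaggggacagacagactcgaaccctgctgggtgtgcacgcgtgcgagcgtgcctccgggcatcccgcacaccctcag
Kcnj12 (lower with tumor), chr11:61065554-61065853, plus strand: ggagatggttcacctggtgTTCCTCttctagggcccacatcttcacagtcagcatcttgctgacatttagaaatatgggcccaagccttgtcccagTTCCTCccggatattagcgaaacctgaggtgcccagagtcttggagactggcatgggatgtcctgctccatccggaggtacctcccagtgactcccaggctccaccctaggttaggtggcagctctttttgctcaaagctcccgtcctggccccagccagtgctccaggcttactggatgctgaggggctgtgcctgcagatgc
Kcng4 (lower with tumor), chr8:119635631-119635930, minus strand: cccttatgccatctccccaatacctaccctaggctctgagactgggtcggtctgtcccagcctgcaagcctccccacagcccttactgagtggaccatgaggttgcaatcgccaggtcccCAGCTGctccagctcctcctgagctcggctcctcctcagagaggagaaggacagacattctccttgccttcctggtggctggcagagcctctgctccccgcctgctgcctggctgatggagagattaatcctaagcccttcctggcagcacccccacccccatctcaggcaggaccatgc
Kcnn4 (higher with tumor), chr7:24370013-24370312, plus strand: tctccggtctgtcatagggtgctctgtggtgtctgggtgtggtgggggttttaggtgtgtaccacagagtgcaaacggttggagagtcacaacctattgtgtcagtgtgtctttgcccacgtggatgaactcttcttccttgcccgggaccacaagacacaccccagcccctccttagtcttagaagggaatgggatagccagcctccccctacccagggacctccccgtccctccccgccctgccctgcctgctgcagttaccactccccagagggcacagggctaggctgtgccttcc
Kcnab2 (higher with tumor), chr4:152477500-152477799, minus strand: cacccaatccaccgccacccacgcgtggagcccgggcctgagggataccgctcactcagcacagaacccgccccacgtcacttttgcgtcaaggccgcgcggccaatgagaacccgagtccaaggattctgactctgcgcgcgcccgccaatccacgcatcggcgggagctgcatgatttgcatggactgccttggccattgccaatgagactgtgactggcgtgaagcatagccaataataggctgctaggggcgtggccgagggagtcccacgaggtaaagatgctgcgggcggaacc

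Kcnj12 held GAGGAA 231 and 154 bases before its start, on the opposite strand and so printed as TTCCTC, and Kcng4 held CAGCTG 130 bases before its start. The other 3 windows held neither motif. Of 32851 mouse promoter windows of this length, 16.3% held CAGCTG and 28.3% GAGGAA. RefSeq had windows for 20 of the 26 tested members, with 30 starts in all, of which 9 held CAGCTG and 8 GAGGAA. These are letter matches only.

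With tumor, Kcnq5 and Kcnj12 fell in both injected arms and separated every tumor-bearing from every tumor-free mouse. Kcnq5 is a pore of the M-current family and Kcnj12 a strong inward rectifier of muscle and heart. Kcnq5 was 5.03, 4.93, 5.54, 5.62 and 5.93 TPM in Control, 4.99, 6.45, 4.94, 4.56 and 5.70 in Control + rFibcd1, 3.55, 3.55 and 3.47 in LLC, and 3.77, 3.96, 3.23 and 3.80 in LLC + rFibcd1. The highest tumor-bearing mouse, at 3.96 TPM, lay below the lowest tumor-free mouse, at 4.56 TPM. The log2 fold change of TPM + 1 was -0.50 ± 0.088 in LLC against Control (SE, limma adjusted p = 0.00791). Among rFibcd1-injected mice the change with tumor was -0.43 ± 0.081 (adjusted p = 0.0067). As ratios of mean TPM these were 0.652 and 0.692. The pseudocount of 1 TPM makes log2 changes smaller than those of the ratios, most for low genes.

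Kcnj12 was 13.9, 14.9, 17.7, 14.0 and 18.002 TPM in Control and 16.3, 16.9, 19.9, 16.7 and 14.99 in Control + rFibcd1. It was 12.5, 12.4 and 11.3 TPM in LLC and 10.8, 12.6, 13.5 and 12.9 in LLC + rFibcd1. The groups again did not overlap, but the gap was narrow, from 13.5 to 13.9 TPM. Its log2 fold change was -0.34 ± 0.099 in LLC against Control (SE, limma adjusted p = 0.0189) and -0.41 ± 0.091 in the rFibcd1-injected arm (adjusted p = 0.0142). Over all tumor-bearing against all tumor-free mice the changes were -0.46 ± 0.059 for Kcnq5 (adjusted p = 0.000377) and -0.38 ± 0.067 for Kcnj12 (adjusted p = 0.00162). Only 2 of 26 members separated the 7 from the 10 mice, against 2.26% of all genes tested. Both calls over all mice held when any 1 mouse was left out, with a highest adjusted p of 0.00119 for Kcnq5 and 0.00557 for Kcnj12. Skeletal myofiber markers were lower beside these falls in the mock-injected arm: their sum was 31472 to 32500 TPM in LLC and 34937 to 38472 in Control, with 2 of 7 markers called lower (Ckm and Myh1). In the rFibcd1-injected arm the sums overlapped, at 31282 to 37091 TPM with tumor and 34448 to 39369 without, and 1 of 7 markers was called lower (Ckm). LLC + rFibcd1 mouse 1, with the highest sum of the tumor-bearing mice, had the lowest Kcnj12 of all 17 mice. The part of these markers in the falls was not tested.

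**Figure D2:**
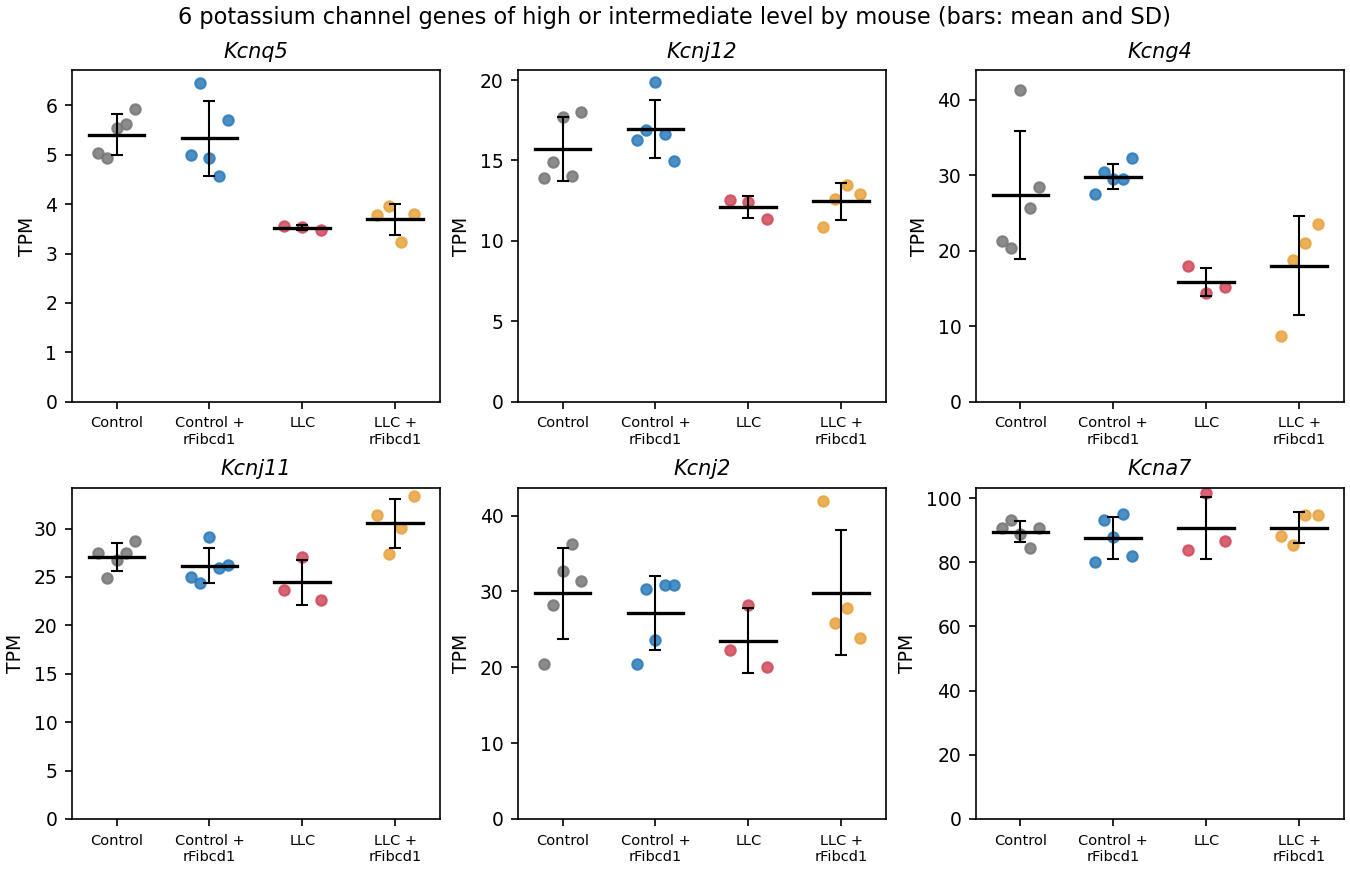
TPM by mouse (points) with mean and SD (bars) in the 4 groups for Kcnq5, Kcnj12, Kcng4, Kcnj11, Kcnj2 and Kcna7, each axis starting at 0. Kcnq5 and Kcnj12 are lower in all 7 tumor-bearing mice, while the means of Kcnj11 are 24.4 TPM in LLC and 30.5 in LLC + rFibcd1.

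The question of the comparison LLC against Control is what the tumor did to the mock-injected diaphragm. Of the 26 tested members 12 were called (limma adjusted p under 0.05 over all genes), 6 higher and 6 lower, against 35.8% of all genes tested (29.7% higher and 6.02% lower). The median log2 change was 0.16 over all genes tested and -0.084 over the members. All 4 voltage-gated subunits called were lower, while the 3 auxiliary subunits called were higher. Of 4 inward rectifiers 1 was called (lower), 3 of 4 2-pore-domain channels (2 higher, 1 lower) and 1 of 5 calcium-activated members (higher). The split of members depended on scaling: it was 2 higher and 8 lower of 25 tested with median-ratio scaling, against 14.3% and 15.4% of all genes, and 2 higher and 12 lower of 26 with quantile normalization, against 11.3% and 23.9%, while the share of higher calls among all genes went from 83.2% to 48.1% and 32.2%. Kcnab2 and Kcnn4 were the higher members under both, and Kcnq5, Kcnj12, Kcng4 and Kcnk2 stayed lower under both. Dunn's test called no gene after adjustment, and at an unadjusted p under 0.05 it gave 13 of 26 members, against 37.5% of all genes. When LLC mouse 3 was left out no member was called, Kcnip3 no longer passed the filter, and 0.182% of all genes tested were called. No member was called when Control mouse 1 was left out as well, an alternative chosen after seeing the data. In that fit 0.0304% of all genes were called, so the 0 says nothing about the members.

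Kcng4 had the largest fall by log2 change. It was 21.3, 20.3, 41.3, 25.7 and 28.4 TPM in Control and 17.96, 14.4 and 15.3 in LLC, and its change was -0.71 ± 0.25 (SE, limma adjusted p = 0.0409). In Control + rFibcd1 it lay between 27.6 and 32.2 TPM and in LLC + rFibcd1 at 8.72, 18.8, 21.1 and 23.5 TPM. The tumor-bearing mice lay below the tumor-free mice of the same arm in both arms, but LLC + rFibcd1 mice overlapped with Control. The rFibcd1 arm gave -0.78 ± 0.23 (adjusted p = 0.0527).

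Kcnk2, a mechanically gated leak channel, was lower by -0.30 ± 0.11 (SE, limma adjusted p = 0.0371) at a low level of 1.27 ± 0.137 TPM in Control (SD, n = 5) and 0.762, 0.782 and 0.970 TPM in LLC. The call for Kcnk2 was lost in 7 of the 17 fits that left out 1 mouse, and that for Kcng4 in 6.

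Kcna7, the leading member, was 83.8, 102 and 86.8 TPM in LLC, with a log2 change of 0.01 ± 0.068 against Control (SE, limma adjusted p = 0.885). Kcnj2, the other strong inward rectifier, ranged from 20.4 to 36.3 TPM in Control and from 20.0 to 28.2 in LLC. Its change of -0.32 ± 0.20 did not pass (adjusted p = 0.225). Kcnj8, the vascular ATP-sensitive pore, changed by -0.02 ± 0.12 (adjusted p = 0.884) and Kcnc4, a rapidly inactivating voltage-gated channel, by -0.01 ± 0.14 (adjusted p = 0.977). Kcnc1, a fast delayed rectifier, was at 14.96 ± 3.32 TPM in Control and 12.6 ± 0.734 in LLC (SD, n = 5 and 3), with a change of -0.21 ± 0.15 (limma adjusted p = 0.287). Kcnma1, the large-conductance calcium-activated channel, was at 3.89 ± 0.678 TPM in Control and 3.87 ± 0.555 in LLC (SD, n = 5 and 3). Kcnn3, the small-conductance calcium-activated channel that muscle makes when denervated, was 2.07 to 2.97 TPM in Control and 1.82 to 2.24 in LLC, with overlap and a change of -0.18 ± 0.12 (adjusted p = 0.248). Kcnh2, a slowly deactivating voltage-gated channel known from heart, was 0.863 to 1.93 TPM in Control and 0.650 to 1.32 in LLC, with a change of -0.19 ± 0.17 (adjusted p = 0.398). A missed threshold in groups of this size does not show that these levels were equal.

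The members that rose in LLC were, by size of change, Kcnn4, Kcnab2, Kcnk5, Kcnk6, Kcnip3 and Kcne4. Kcnn4 is a calcium-activated channel of lymphocytes, macrophages and other cells. It was 2.42, 3.27, 1.35, 1.62 and 0.857 TPM in Control and 6.04, 6.27 and 9.47 in LLC. Its highest value was that of LLC mouse 3, the library with high smooth muscle and epithelial markers. Kcnab2, a beta subunit of the Kcna channels, was 1.34, 1.83, 1.04, 0.925 and 0.490 TPM in Control and 3.71, 4.58 and 4.70 in LLC. Neither overlapped between the 2 groups, and the changes were 1.54 ± 0.44 for Kcnn4 (SE, limma adjusted p = 0.018) and 1.35 ± 0.35 for Kcnab2 (adjusted p = 0.0137). In the rFibcd1-injected arm both spread widely. Kcnn4 was 4.55, 1.36, 0.919, 0.523 and 1.38 TPM in Control + rFibcd1 and 1.44, 3.88, 7.60 and 1.41 in LLC + rFibcd1, so that mouse 1 without tumor exceeded 3 of 4 mice with tumor.

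Immune cell markers moved with both genes. The summed level of the 6 B cell markers was 2.45 to 97.1 TPM in Control and 226 to 287 in LLC, and all 6 were called higher, as were 5 of 5 T cell and 3 of 5 macrophage markers. In LLC + rFibcd1 mice 1 to 4 the B cell sum was 18.3, 129, 282 and 21.4 TPM, high in mice 2 and 3, as were Kcnn4 and Kcnab2, the latter at 1.10, 2.33, 3.72 and 1.23 TPM. Control + rFibcd1 mouse 1 had the highest sums of its group for B cells, at 139 TPM, and for macrophage markers, at 1656 TPM against 201 to 445 in the other 4 mice. With a B cell score as a covariate the changes were 0.31 for Kcnn4 (limma adjusted p = 0.461) and 0.39 for Kcnab2 (adjusted p = 0.307), and 0 of 26 members were called, against 0.0676% of all genes. Since the B cell sums of Control and LLC do not overlap, tumor and B cell level cannot be told apart in that comparison. Over all tumor-bearing against tumor-free mice Kcnq5 and Kcnj12 were still called with the covariate (adjusted p = 0.0116 and 0.0448), and no other member was. Kcna3, the voltage-gated channel of T cells, did not exceed 0.126 TPM in any mouse.

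**Figure D3:**
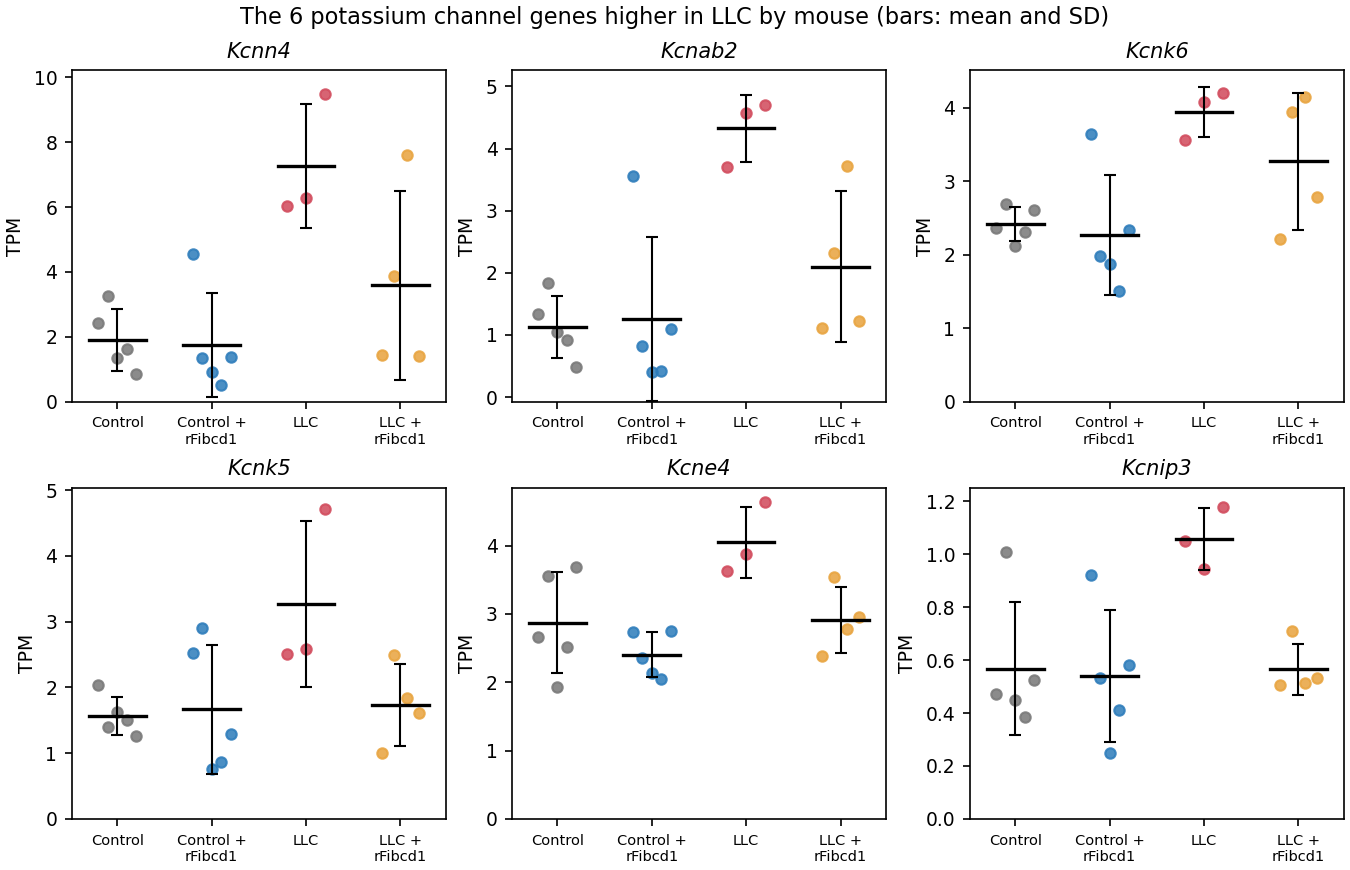
TPM by mouse (points) with mean and SD (bars) in the 4 groups for the 6 members called higher in LLC against Control; an SD bar may run below 0. Kcnn4, Kcnab2, Kcnk6 and Kcnk5 do not overlap between Control and LLC, and in LLC + rFibcd1 Kcnn4 spans 1.41 to 7.60 TPM.

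Kcnk6, a weakly rectifying leak channel found in many tissues, was 2.37, 2.68, 2.12, 2.30 and 2.60 TPM in Control and 3.56, 4.07 and 4.20 in LLC. The groups did not overlap, and the change was 0.53 ± 0.18 (SE, limma adjusted p = 0.0306). Kcnk5, an acid-sensitive leak channel of epithelia and T cells, was 2.03, 1.40, 1.63, 1.499 and 1.27 TPM in Control and 2.50, 2.58 and 4.72 in LLC, with a change of 0.70 ± 0.26 (adjusted p = 0.0481). The highest value was that of LLC mouse 3, the library with high smooth muscle and epithelial markers, and the call was lost in 10 of 17 fits that left out 1 mouse. Kcne4, an accessory subunit of voltage-gated channels, was 4.05 ± 0.522 TPM in LLC and 2.87 ± 0.739 in Control (SD, n = 3 and 5), with overlap and a change of 0.40 ± 0.14 (adjusted p = 0.0424). Kcnip3, a calcium-binding partner of A-type channels, was 1.05, 0.945 and 1.18 TPM in LLC and 0.384 to 1.01 in Control. The groups overlapped, and the change was 0.40 ± 0.14 (adjusted p = 0.0343). Kcnip3 reached 1 TPM only in LLC mice 1 and 3 and in Control mouse 2. It thus entered the test through the group where it was higher, and its call is not independent of the filter. Leaving out 1 mouse lost the call for Kcne4 in 6 of 17 fits, for Kcnk6 in 5 of 17 and for Kcnip3 in 4 of the 14 in which it passed the filter, while those for Kcnn4 and Kcnab2 were lost in 1 each, without LLC mouse 3. Calls for Kcnk5, Kcnk6 and Kcne4 were lost with median-ratio scaling, and those for Kcnk5, Kcnk6, Kcne4 and Kcnip3 with quantile normalization.

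Without regard to the test, 11 of 26 members did not overlap between LLC and Control, 4 higher and 7 lower, against 40.2% of all genes tested. Kcnn2 was the one lower member among them that was not called, at an adjusted p of 0.0825 by limma.

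In LLC + rFibcd1 against Control + rFibcd1, the tumor comparison among rFibcd1-injected mice, 2 of 26 members were called, Kcnq5 and Kcnj12, both lower, against 8.06% of all genes tested (7.02% higher and 1.04% lower). Of the 12 members called in LLC against Control, 11 had the same sign in this arm, which shares no mice with the first, and 10 had a smaller change. Over all genes called in LLC against Control these shares were 94.1% and 93.4%. Endothelial markers were higher in this comparison, with 5 of 6 called and sums of 217 to 238 TPM with tumor against 153 to 188 without, and their part in the channel levels was not tested. In LLC against Control 1 of the 6 was called, and over all tumor-bearing against tumor-free mice 5. Kcng4, Kcnj12 and Kcnq5 did not overlap between the groups (3 of 26, against 8.91%). Leaving out Control + rFibcd1 mouse 1, the mouse with high macrophage and B cell markers, raised the count to 5 members (2 higher, 3 lower), and that over all genes to 21.8%.

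**Figure D4:**
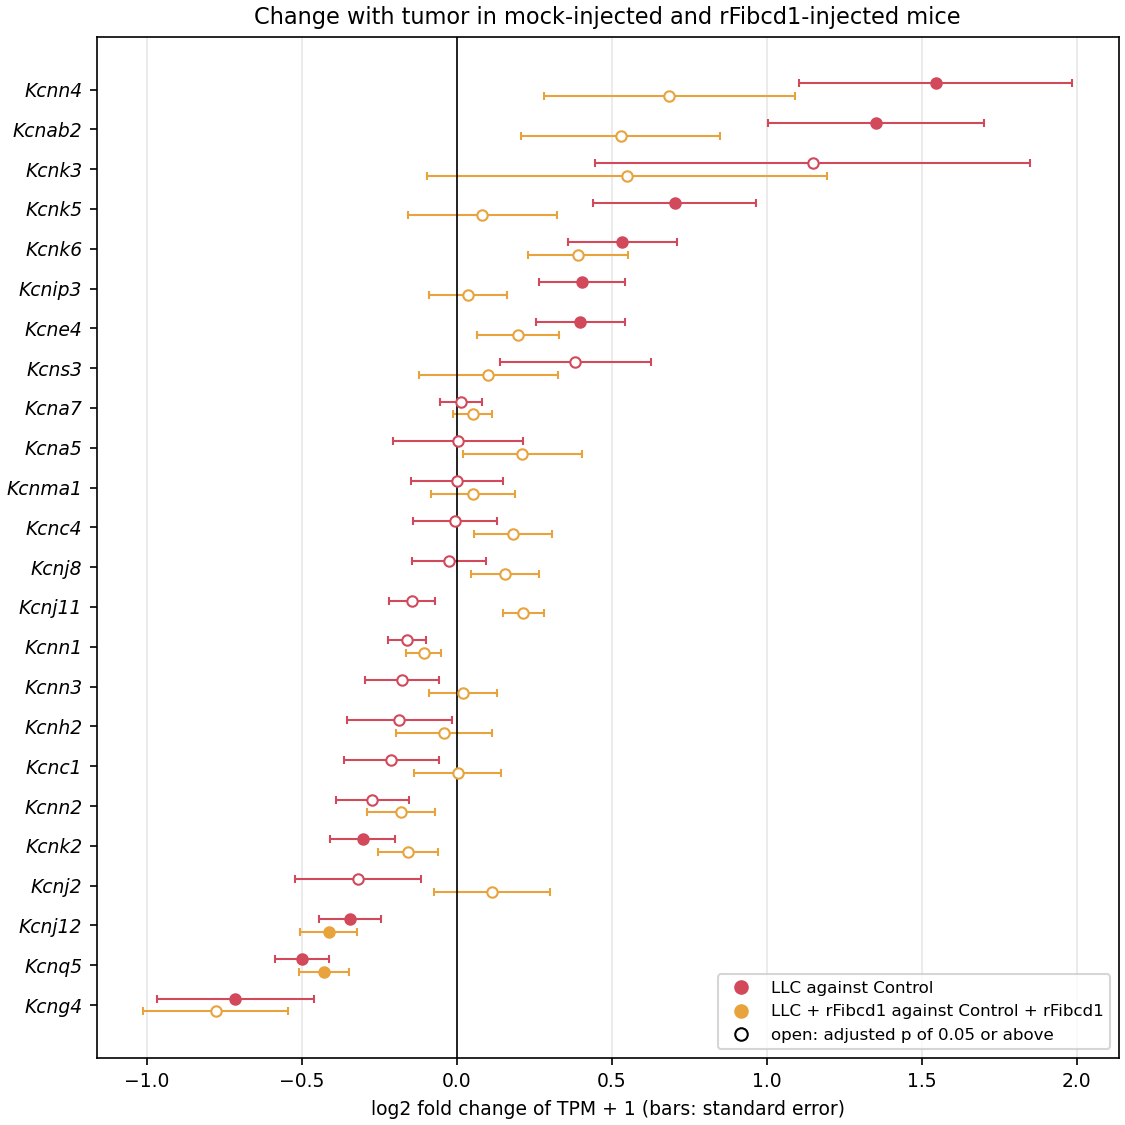
Log2 fold change of TPM + 1 with its standard error for 24 of the 26 tested members in LLC against Control and in LLC + rFibcd1 against Control + rFibcd1, filled where the limma adjusted p was under 0.05. Kcnq5 and Kcnj12 are filled in both, and Kcng4, Kcnk2 and the 6 higher members are filled in LLC against Control only.

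Over all 7 tumor-bearing against all 10 tumor-free mice 11 members were called, 4 higher and 7 lower, against 44.8% of all genes (38.8% higher and 5.98% lower). With median-ratio scaling 3 were higher and 8 lower, against 17.6% and 18.4% of all genes, and with quantile normalization 3 and 10, against 13.7% and 25%. The higher members were Kcnn4, Kcnab2, Kcnk6 and Kcne4, and the lower members included Kcnq5, Kcnj12, Kcng4, Kcnk2, Kcnn1 and Kcnn2. Kcnn1 and Kcnn2, small-conductance calcium-activated channels, were called here and not in LLC against Control, with changes of -0.13 ± 0.041 (SE, limma adjusted p = 0.0215) and -0.23 ± 0.080 (adjusted p = 0.0317). The calls for Kcnn1, Kcnn2 and Kcne4 held in 15, 11 and 11 of the 17 fits that left out 1 mouse. They held in 6, 6 and 3 of 9 other alternatives. Kcnn2 was at 1.27 ± 0.191 TPM in Control and 0.876 ± 0.029 in LLC (SD, n = 5 and 3). Without LLC mouse 3 the count was 7, against 31.4% of all genes, and without LLC mouse 3 and Control mouse 1 it was 6, against 28.8%.

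Kcnh1 rose with tumor at a level below the filter, so it entered only the fit without a filter, and it was singled out after its values were seen. Kcnh1 is a voltage-gated channel known from brain and from fusing myoblasts. It was 0.0488, 0.0811, 0.0456, 0.0164 and 0.0452 TPM in Control, 0.0204 to 0.0386 in Control + rFibcd1, 0.251, 0.174 and 0.163 in LLC, and 0.0585, 0.158, 0.180 and 0.203 in LLC + rFibcd1. Only LLC + rFibcd1 mouse 1 lay among the tumor-free mice. The ratio of mean TPM was 4.14 in LLC against Control and 4.92 in LLC + rFibcd1 against Control + rFibcd1. The changes on the log2(TPM + 1) scale were 0.19 ± 0.035 (SE, limma adjusted p = 0.0105) and 0.16 ± 0.032 (adjusted p = 0.015). The gene rested on 3.0 to 45.9 estimated reads per mouse. Without the filter 18 of 92 members were called in LLC against Control, 12 higher and 6 lower, against 21.4% of all genes, 4 of 92 in the rFibcd1 arm, against 3.64%, and 22 of 92 over all tumor-bearing against tumor-free mice, against 27.3%. Kcna1, a delayed rectifier of nerve and muscle, was the other member below the filter called in the rFibcd1 arm. It was 0.713 to 0.804 TPM in LLC + rFibcd1 and 0.353 to 0.626 in Control + rFibcd1, without overlap, and its change was 0.24 ± 0.053 (limma adjusted p = 0.0239). In LLC it was 0.511 to 0.553 TPM, within the range of Control. Kcnab1, a beta subunit of the Kcna channels and also below the filter, was 0.428 to 0.688 TPM in Control, 0.292 to 0.708 in Control + rFibcd1, 0.696 to 0.870 in LLC and 0.506 to 0.711 in LLC + rFibcd1. Without the filter its change over all tumor-bearing against tumor-free mice was 0.17 ± 0.056 (SE, limma adjusted p = 0.0323).

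The comparison LLC + rFibcd1 against LLC asks what rFibcd1 changed in tumor-bearing mice. By limma 0 of 26 members were called, against 0.113% of all genes, and 8 had an unadjusted p under 0.05, against 22.7% of all genes. Dunn's test, the test named in the study's methods, called 0 of 13305 genes at an adjusted p under 0.05 in every comparison it was run on, so its 0 says nothing about the members. At an unadjusted p under 0.05 it gave 1 of 26 members here, against 7.17% of all genes. Kcnj11 had the smallest p. It was 23.6, 27.1 and 22.7 TPM in LLC and 31.4, 27.4, 30.04 and 33.3 in LLC + rFibcd1, without overlap but with a gap only from 27.1 to 27.4 TPM. The change was 0.31 ± 0.077 (SE, adjusted p = 0.124). Kcne4, Kcnip3 and Kcnk5 were lower without overlap, by -0.37 ± 0.15, -0.40 ± 0.14 and -0.63 ± 0.27 (adjusted p = 0.204, 0.195 and 0.209). Together 4 of 26 members did not overlap between these groups, against 14.6% of all genes. Kcnq5 and Kcnj12 changed by 0.05 ± 0.092 (adjusted p = 0.736) and 0.04 ± 0.10 (adjusted p = 0.834).

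In Control + rFibcd1 against Control, rFibcd1 without tumor, limma called 0 of 26 members, and 0% of all genes. Of the members 1 had an unadjusted p under 0.05, against 4.39% of all genes, and no member separated the groups, against 0.812%. At an unadjusted p under 0.05 Dunn's test gave 0 of 26 members, against 2.42% of all genes. In the interaction, which tests whether the tumor change differed between the injected arms, limma called 0 of 26 members and 0% of all genes, and 2 had an unadjusted p under 0.05, against 8.58% of all genes. Kcnj11 was 1 of these, and its tumor change was higher by 0.36 ± 0.099 under rFibcd1 (SE, adjusted p = 0.2). Kcnj11 changed by -0.14 ± 0.073 in LLC against Control and by 0.22 ± 0.067 in the rFibcd1 arm (adjusted p = 0.129 and 0.06), so neither arm passed.

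Partners of potassium channels in membrane excitability were read from a list of 25 genes, of which 19 were tested. In LLC against Control 8 were called lower and 0 higher, against 6.02% and 29.7% of all genes. Without LLC mouse 3, and also with the B cell covariate, 0 were called, while 0.182% and 0.0676% of all genes were. Without LLC mouse 1 the count was 4 lower and 1 higher, against 3.77% and 13.3%. With median-ratio scaling and with quantile normalization 12 partners were lower in each, against 15.4% and 23.9% of all genes, and with the replicate block 0 were called, where 0.0376% of all genes were. The summed skeletal myofiber markers were lower in the same LLC mice, as given above, and their part in the partners' levels was not tested. Scn4a, the sodium channel of muscle, was lower by -0.28 ± 0.061, Clcn1, the chloride channel that steadies the resting membrane, by -0.29 ± 0.086, and Cacna1s, the voltage sensor for calcium release, by -0.33 ± 0.068 (SE, limma adjusted p = 0.0106, 0.0211 and 0.00996). Ryr1, the calcium release channel itself, was lower by -0.35 ± 0.075 (adjusted p = 0.0103). The median change over the 19 genes was -0.19, beside 0.16 over all genes. Abcc9, the receptor subunit that completes the ATP-sensitive channels of Kcnj8 and Kcnj11, was 37.7 to 40.6 TPM in LLC and 38.2 to 52.2 in Control, with a change of -0.22 ± 0.086 (adjusted p = 0.0535), while Abcc8 stayed under 0.41 TPM in every mouse. In the rFibcd1-injected arm 2 partners were called higher and 0 lower, against 7.02% and 1.04% of all genes.

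Kcnk3, an acid-sensitive leak channel, had the largest ratio of highest to lowest TPM among the tested members, at 29.9, ahead of Kcnn4 at 18.1. Its high mice came from all 4 groups. It was 3.62, 4.19, 0.546, 0.775 and 0.625 TPM in Control, 6.95, 0.721, 0.826, 0.575 and 0.722 in Control + rFibcd1, 16.3, 1.304 and 3.502 in LLC, and 1.98, 7.33, 1.72 and 0.986 in LLC + rFibcd1. Its change in LLC against Control was 1.15 ± 0.70 (SE, limma adjusted p = 0.203). The 6 mice with Kcnk3 above 2 TPM were the 6 mice with Ucp1 above 5 TPM, and both thresholds were chosen after seeing the values. Ucp1 was 213 TPM in LLC mouse 1, 128 in Control + rFibcd1 mouse 1, 112 in LLC + rFibcd1 mouse 2, 62.3 in Control mouse 2, 16.5 in Control mouse 1 and 5.96 in LLC mouse 3. The other 11 mice had at most 1.07 TPM of Ucp1 and 1.98 TPM of Kcnk3. The order of the 6 mice differed between the genes only for Control + rFibcd1 mouse 1 and LLC + rFibcd1 mouse 2, which are close in both. The summed level of the 4 general adipocyte markers was also highest in these 6 mice, at 292 to 954 TPM, against 55.6 to 264 in the other 11. Cidea, another brown fat gene, was highest in the same 6 mice, with at most 15.7 TPM in the other 11. Elovl3, also of brown fat, did not separate them. It was 6.97 TPM in LLC mouse 1 and 3.77 in Control + rFibcd1 mouse 1. It was 2.10 TPM in Control + rFibcd1 mouse 2 and 0.670 in Control mouse 4, both low in Kcnk3. These 2 values lay above the 0.213, 0.451 and 0.166 TPM of Control mouse 1, Control mouse 2 and LLC mouse 3. The part of brown or other fat in the Kcnk3 level was not tested.

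Kcnq1, Kcne3, Kcnk1 and Kcnh3, all below the filter, stood apart in the same libraries, LLC mouse 3 and Control mouse 1. Kcnq1 and Kcne3 are a pore and an accessory subunit that together form the basolateral potassium channel of intestinal epithelium. Kcnq1 was 8.91 TPM in LLC mouse 3, 2.18 in Control mouse 1 and 0.421 to 0.825 in the other 15 mice. Kcne3 was 6.71, 2.35 and 0.180 to 0.897 TPM in the same order. Kcnk1, a leak channel, was 5.55, 1.61 and 0.243 to 0.809 TPM, and Kcnh3, a voltage-gated channel, 3.47, 0.6995 and 0.0447 to 0.582 TPM. In each of the 4 genes these were the highest and the next highest mouse. Epithelial genes, listed after the values were seen, had the same pair on top in 5 of 6 cases. Epcam, an epithelial adhesion protein, was 15.4 and 3.00 TPM and at most 0.761 in the other mice, and Cldn7, a tight junction protein, was 14.98 and 3.55 and at most 0.139. Krt19 was the exception, since Control + rFibcd1 mouse 1 had 32.3 TPM against 31.2 in Control mouse 1. Smooth muscle markers stood apart in LLC mouse 3 as well. Their sum over 4 genes was 484 TPM there, against 91.2 to 184 in every other mouse and 136 in Control mouse 1. In LLC against Control 3 of these 4 markers were called higher. The part of epithelial and smooth muscle cells in these levels was not tested.

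**Figure D5:**
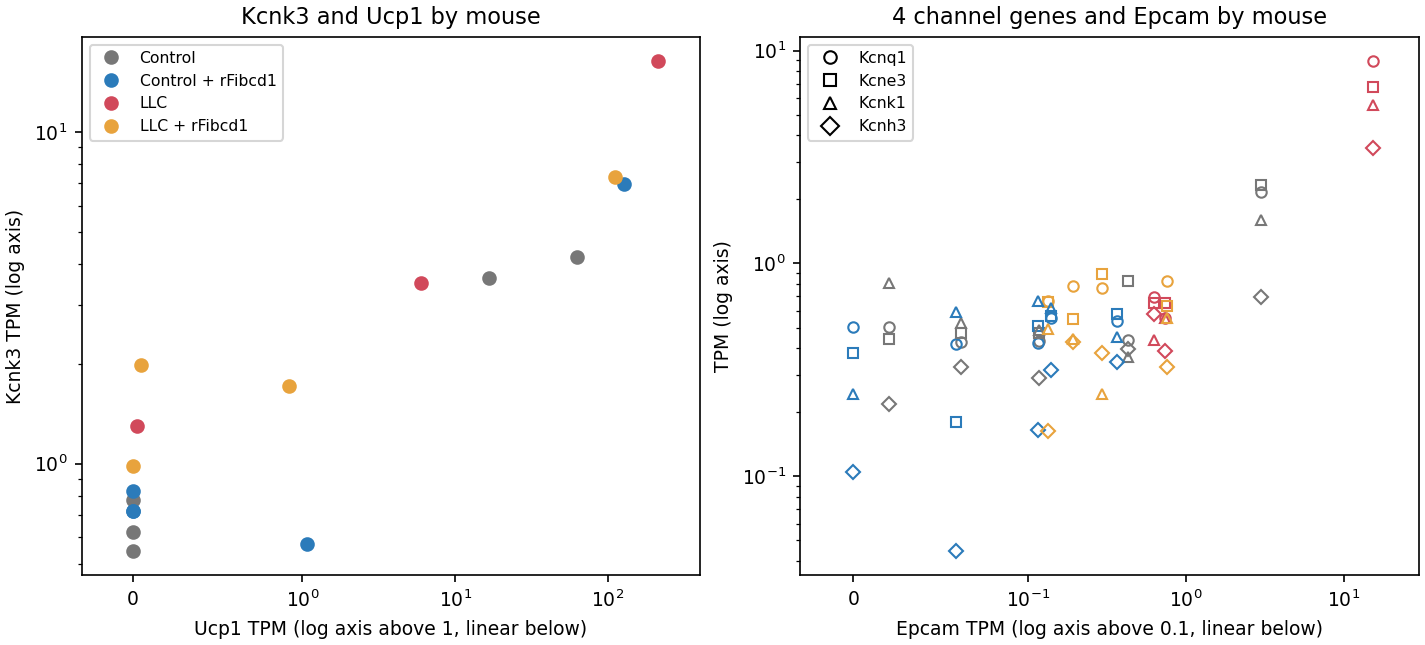
Left, Kcnk3 against Ucp1 TPM, and right, Kcnq1, Kcne3, Kcnk1 and Kcnh3 against Epcam TPM, 1 point per mouse and gene, colored by group as in the left legend, on axes that are logarithmic except near 0 on the horizontal. The 6 mice with Ucp1 above 5 TPM are the 6 with Kcnk3 above 2 TPM, and the 4 genes on the right are highest in LLC mouse 3, at an Epcam level of 15.4 TPM.

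The summed level of the 97 members was 336.3 ± 13.7 TPM in Control, 330.0 ± 6.98 in Control + rFibcd1, 327.3 ± 8.24 in LLC and 335.3 ± 10.996 in LLC + rFibcd1 (SD, n = 5, 5, 3 and 4). The 4 ranges overlapped. By role, voltage-gated pore subunits summed to 187.6 ± 8.51 TPM in LLC and 198.6 ± 15.2 in LLC + rFibcd1, against 204.8 ± 11.6 in Control. The 2-pore-domain channels summed to 17.9 ± 7.19 TPM in LLC against 8.34 ± 2.25 in Control, and auxiliary subunits to 13.8 ± 4.52 against 6.64 ± 1.62 (SD, n = 3 and 5). LLC mouse 3 gave the highest auxiliary sum, at 19.0 TPM. These sums were not tested, and that of the 2-pore-domain class includes Kcnk3 at 16.3 TPM in LLC mouse 1.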

How the data were processed

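Diaphragm RNA of 17 mice was sequenced. The deposited values are TPM, which the authors obtained by aligning trimmed paired reads to mm10, counting them per gene in CLC Genomics Workbench, dividing by gene length and scaling each sample to a sum of 1000000. Annotation release and strand setting are not given in the sources used here, so reads of genes that overlap on opposite strands may be shared. Mitochondrial transcripts are part of the sum. Exon lengths from GENCODE matched 94.64% of symbols and gave depth from the steps of low values: 82.6 to 85.5% of these were whole reads within 0.02, where chance gives 4%. This share was too low to run a count test.

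The 13305 genes that reached 1 TPM in 3 or more mice were tested on log2(TPM + 1) with limma 3.58.1 in R 4.3.3, with 4 group means in 1 model, moderated variances with a trend and Benjamini-Hochberg adjustment over all genes, at 0.05. The study used Kruskal-Wallis with Dunn's test, tried here as an alternative, as were other scalings, filters, pseudocounts, a B cell covariate, a replicate block and leaving out mice. The test was checked on simulated data. Groups come from the sample titles. Each mouse is 1 sample, and no 2 samples held identical values. The labels give no batch. The members and lists were chosen with earlier results of these data known. Members named are the 3 highest in Control of each role, all called, those with the smallest p in each rFibcd1 comparison and a list of muscle, vascular and immune channels. Kcnh1, Kcna1, Kcnq1, Kcnk1 and Kcnh3 were added after their values were seen. Results of 2 tested members are not reported here by name, and counts over the members include them.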

Additional observations from a re-analysis of the deposited data

Results flagged for a closer look

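In 28 named members, 84 groups of 4 or 5 mice were examined for a single mouse far from the rest, and 9 values stood out. The limit used is passed by about 1 in 20 groups of normally distributed values. TPM values need not be normal and the genes share mice, so the 9 cannot be weighed against that rate. Control + rFibcd1 mouse 1 had 4 of the 9: Kcnk3 at 6.95 TPM against 0.575 to 0.826 in the other mice of its group, Kcnn4 at 4.55 against 0.523 to 1.38, Kcnab2 at 3.55 against 0.409 to 1.09, and Kcnk13, a leak channel of microglia and other cells, at 0.904 against 0.217 to 0.353. LLC + rFibcd1 mouse 2 had 3: Kcnk3 at 7.33 TPM against 0.986 to 1.98, Kcnip3 at 0.709 against 0.506 to 0.530, and Kcna3 at 0.126 against 0 to 0.0204, which at this level is a matter of few reads. Control mouse 1 had Kcne3 at 2.35 TPM against 0.442 to 0.825, and Control mouse 2 had Kcnip3 at 1.01 against 0.384 to 0.525. LLC was not examined in this way, since it holds 3 mice.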

How the results depend on the processing

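No call reversed its direction under any alternative run. In LLC against Control the 12 calls became 0 with Dunn's test, which called 0 of all 13305 genes after adjustment and 13 members unadjusted (37.5% of all genes), and 0 with a B cell score as covariate, where 9 genes were called in all. Leaving out 1 mouse gave 0 to 13 calls. The count was 6 without Control mouse 3, 6 without Control mouse 4 and 6 without LLC mouse 1. These fits called 26.5%, 26.6% and 17% of all genes. The count was 0 without LLC mouse 3 (0.182% of all genes). It was also 0 without LLC mouse 3 and Control mouse 1 together (0.0304% of all genes). Over tumor-bearing against tumor-free mice the 11 calls became 22 without a filter (13 higher, 9 lower; 27.3% of all genes), 2 with the B cell covariate (4.86% of all genes) and 6 without LLC mouse 3 and Control mouse 1; leaving out 1 mouse gave 7 to 13, with 7 without LLC mouse 3. In LLC + rFibcd1 against Control + rFibcd1 the 2 calls became 4 without a filter (3.64% of all genes), 0 with Dunn's test and 1 with only the 2 groups fitted (2.28% of all genes); leaving out 1 mouse gave 2 to 5, with 5 without Control + rFibcd1 mouse 1. The remaining comparisons (rFibcd1 with tumor, rFibcd1 without tumor, interaction) gave 0 calls among the members in every fit, 0 to 0 over mice left out. In none of these fits were more than 0.249% of all genes called. The cause of these changes was not tested, except that fits without a filter test more genes.

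Replicate numbers are shared between groups, so deviations from the group means were correlated between mice of different groups. Pairs with the same number ran from -0.459 to 0.485 (median -0.061, 22 pairs). Pairs with different numbers ran from -0.649 to 0.747 (median -0.0255, 85 pairs). The numbers gave no sign of pairing the mice, but a check on so few pairs cannot exclude it. With the replicate block the counts were 0 in LLC against Control, against 0.0376% of all genes, 6 over all mice (3 higher, 3 lower), against 28.4%, and 2 in the rFibcd1 arm, against 3.7%. LLC holds 3 mice, and levels under 0.1 TPM rest on few reads.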
